A study of Danio rerio with 24 samples.

Results

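The livers compared here differed in both factors of the study at once. The 3 miR-21OE-HCD libraries, from larvae that overexpressed the microRNA miR-21 in hepatocytes and ate a high-cholesterol diet (HCD), were set against the 3 WT-NCD libraries of batches 7, 8 and 9, from wild-type (WT) siblings on the normal control diet (NCD). These 6 of the 24 libraries of the series were chosen by their labels for genotype, diet and batch, and each batch gave 1 library to each group. The question was what miR-21 overexpression and dietary cholesterol together did to the transcriptome of the larval liver.

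All larvae were zebrafish of the AB background, and each library pooled 13 livers of 1 clutch, dissected at 13 days post fertilisation (dpf). miR-21OE larvae carried a transgene in which the hepatocyte promoter fabp10a drives dre-mir-21-1 together with the fluorescent protein Dendra2, and a lens marker in which the cryaa promoter drives mCherry. WT larvae were their siblings without the transgene. No library had the transgene without dre-mir-21-1, so an effect of miR-21 and an effect of the rest of the construct cannot be told apart. HCD was the control food with 10% cholesterol by weight, given from 6 dpf. The other 2 groups of the same batches carried 1 factor each, WT-HCD the diet and miR-21OE-NCD the transgene, with 3 libraries each, and they are given beside the 2 groups compared. A further 12 WT libraries on both diets, from batches 1 to 6, share no sample with the comparison.

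Liver cells balance cholesterol through a pair of opposing regulators. When membrane sterol is low, the transcription factor SREBP2 is released and switches on the enzymes of the mevalonate and cholesterol pathway and the LDL receptor. When sterol is plentiful, oxidised derivatives activate the nuclear receptor LXR, which raises the transporters that carry sterol out of the cell and, in rodents, the first enzyme of bile acid synthesis. miR-21 is a short RNA abundant in injured and malignant liver, and in mammals it lowers a set of growth-restraining and metabolic mRNAs. A pool of whole livers measures RNA per library, so fewer cells of a type and less RNA per cell cannot be told apart in any result below.

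The 6 libraries held 24357743 to 30487724 counts, and the other 6 of batches 7 to 9 held 22380251 to 28214962. Levels are given as CPM, counts scaled to the size of their library after a TMM normalisation factor. CPM do not account for gene length, so they compare libraries and not genes. Batch accounted for 90.4% of the first principal component of the 12 libraries, which held 44.2% of the variance, and group for 93.9% of the second, which held 13.2%. The 16 hepatocyte markers tested summed to 68011 to 94773 CPM in WT-NCD and 62075 to 81004 CPM in miR-21OE-HCD. A negative log2 fold change was seen in 13 of them, with a median of -0.20. None passed the test, but with 1.25% of all genes called, a count of 0 among 16 says nothing about the list. As a check of the labels, MIR21 (ENSDARG00000082187) stood at 2.04, 1.24 and 0.450 CPM in WT-NCD of batches 7, 8 and 9 and at 5.79, 4.63 and 6.20 CPM in miR-21OE-HCD. These groups did not overlap, and the edgeR adjusted p of 0.0572 missed the threshold of 0.05. In WT-HCD it stood at 4.62, 1.38 and 1.54 CPM, so that WT-HCD of batch 7 was level with the lowest miR-21OE-HCD library, and in miR-21OE-NCD at 5.20, 5.20 and 9.28 CPM. A second ID under the symbol MIR21 (ENSDARG00000080484) had 3, 2 and 0 counts in miR-21OE-HCD and 0 in the other 9 libraries. The study reported the microRNA gene of the transgene as significantly higher in transgenic than in WT larvae on the control diet. An ID with 0 counts in both WT-NCD and miR-21OE-NCD cannot be that gene. Counts of ENSDARG00000082187 were 53, 25 and 12 in WT-NCD and 117, 146 and 210 in miR-21OE-NCD. Of the IDs under this symbol, this leaves ENSDARG00000082187 as dre-mir-21-1. CRYAA, whose promoter drives the lens marker, had 16, 7 and 14 counts in miR-21OE-HCD against 0, 0 and 1 in WT-NCD. The ratio of the pooled CRYAA levels was 31.4, with an exact 95% interval of 5.30 to 1274 that covers counting error only, and CRYAA did not pass the test (adjusted p 0.0653). Counts of a precursor gene in these libraries are not a measure of the mature microRNA, and the mature form was not analysed here.

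Both factors together changed 270 of 21660 genes tested, or 1.25%, at an adjusted p under 0.05 by the edgeR quasi-likelihood test with batch as a block and Benjamini-Hochberg adjustment. Of these, 132 rose (0.609% of the genes tested) and 138 fell (0.637%). The direction was the same in all 3 batches for 268 of them. In 232 of the 270, the 3 miR-21OE-HCD libraries did not overlap the 3 WT-NCD libraries, and over all genes tested such separation was seen in 2893, or 13.4%. The smallest called change was 0.87 on the log2 scale, and 2702 genes had an unadjusted p under 0.05. Without the scaling factors, on library totals alone, 342 genes rose and 95 fell, and the median over all genes moved from 0.01 to 0.28 on the log2 scale. Directions below are relative to the TMM scaling. The number of calls leaned on single libraries. It was 72 without miR-21OE-HCD of batch 8, 100 without miR-21OE-HCD of batch 9, 113 without WT-NCD of batch 7 and 114 without WT-NCD of batch 8. Leaving out a whole batch gave 221 calls without batch 7, 13 without batch 8 and 42 without batch 9. The fit with no replicate block called 22 genes, of which 10 rose.

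**Figure D1:**
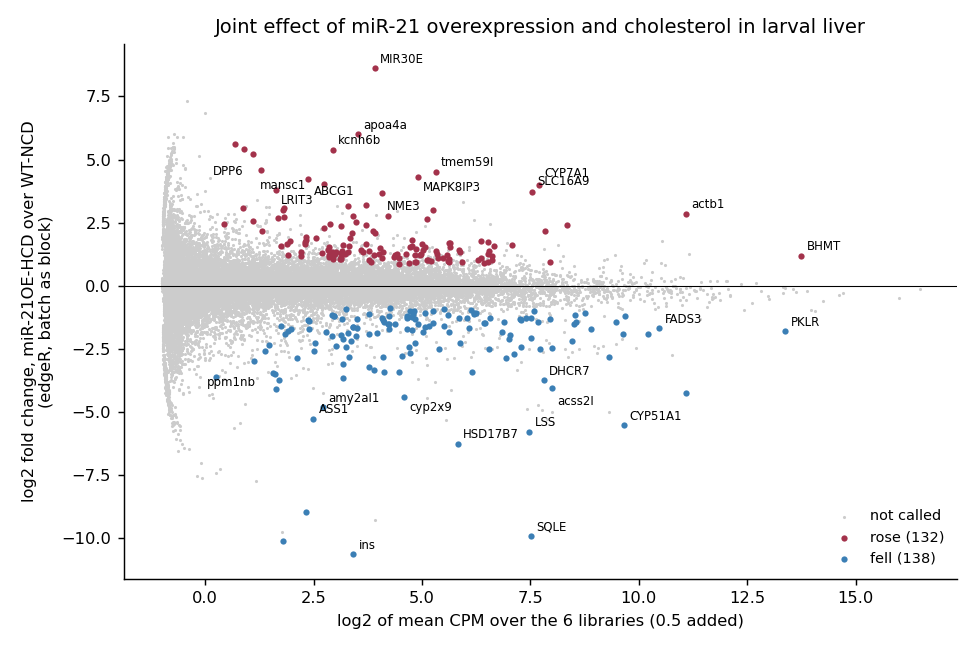
Each point is 1 of the 21660 genes tested. The horizontal axis is the log2 of its mean CPM over the 6 libraries (0.5 added) and the vertical axis is the log2 fold change of miR-21OE-HCD over WT-NCD from edgeR with batch as a block. The 132 genes that rose are red, the 138 that fell are blue, and the labelled genes are those with the largest called changes or the highest levels among the calls. Sterol enzymes such as SQLE (-9.92) and CYP51A1 (-5.52) lie at the bottom right, and MIR30E (8.61) stands at the top.

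The enzymes that build cholesterol carried many of the largest falls among abundant transcripts. Of 23 sterol synthesis genes tested, 6 fell and none rose, or 26.1% called beside 1.25% over all genes. The log2 fold change was negative for 22, with a list median of -4.25 beside 0.01 over all genes. CYP51A1 (cyp51), which removes a methyl group from lanosterol, stood at 34.4, 2145 and 2621 CPM in WT-NCD of batches 7, 8 and 9 and at 2.20, 38.2 and 37.9 CPM in miR-21OE-HCD, and its log2 fold change was -5.52 (SE 0.75, edgeR adjusted p 0.00477). Here the groups overlapped, because WT-NCD of batch 7 lay under 2 of the miR-21OE-HCD libraries.

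The same batch set the pattern of the whole list. SQLE, the squalene epoxidase, had 0.154 CPM in WT-NCD of batch 7 and 405 and 686 CPM in WT-NCD of batches 8 and 9, against 0, 1.13 and 0.155 CPM in miR-21OE-HCD. LSS, which closes the sterol rings, had 2.5, 277 and 770 CPM in WT-NCD and 0.220, 9.85 and 5.0 CPM in miR-21OE-HCD. Both genes were thus already near their lowest level on the control diet in batch 7, and this held in the transgenic livers too, with 0.0444 CPM of SQLE and 2.58 CPM of LSS in miR-21OE-NCD of that batch. Within batches, the median difference between miR-21OE-HCD and WT-NCD over the 23 genes was -0.74 on the log2 scale in batch 7, with 19 lower, -4.28 in batch 8, with 21 lower, and -5.55 in batch 9, with 22 lower. For WT-HCD against WT-NCD these medians were -0.92, -5.08 and -5.88, and for miR-21OE-NCD -0.08, 0.54 and -2.46. SQLE fell by 9.92 on the log2 scale (SE 1.68, adjusted p 0.0150), HSD17B7 by 6.27 (SE 1.06, adjusted p 0.0149), LSS by 5.79 (SE 1.1, adjusted p 0.0254) and DHCR7, the last step of one branch, by 3.75 (SE 0.80, adjusted p 0.0456). Other enzymes of the list had negative values that missed the threshold, among them HMGCS1 (-5.01, adjusted p 0.149) and IDI1 (-2.17, adjusted p 0.277). Without batch 7, 21 of the sterol genes were called down, and without batch 8 or without batch 9 only 1 was. Of single libraries, 2 sterol genes were called without miR-21OE-HCD of batch 8 or of batch 9, 10 without miR-21OE-HCD of batch 7, 11 without miR-21OE-NCD of batch 7 and 13 without WT-NCD of batch 7 or without miR-21OE-NCD of batch 8. CYP51A1 kept its call when each of the 12 libraries was left out in turn, whereas SQLE and HSD17B7 lost theirs without miR-21OE-HCD of batch 8 or 9 and LSS also without WT-NCD of batch 8. The call of DHCR7 was lost without WT-NCD or miR-21OE-HCD of batch 8 or 9 and without any 1 of the 3 WT-HCD libraries. DHCR7 had 75.9, 478 and 726 CPM in WT-NCD, 36.2, 57.7 and 113 CPM in WT-HCD and 23.2, 173 and 57.9 CPM in miR-21OE-NCD. Unlike the list medians of batches 7 and 8, it was thus clearly lower in miR-21OE-NCD as well as in WT-HCD.

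Of 18 genes of sterol sensing and uptake tested, 3 fell and none rose, or 16.7% called beside 1.25% over all genes. The log2 fold change was negative for 12 and positive for 6, with a list median of -0.40. srebf2, which encodes SREBP2 itself, had 382, 681 and 669 CPM in WT-NCD and 126, 154 and 109 CPM in miR-21OE-HCD (log2 fold change -2.20, SE 0.45, adjusted p 0.0391). The LDL receptor gene ldlra went from 662, 1429 and 1360 CPM to 428, 463 and 557 CPM (-1.2, SE 0.25, adjusted p 0.0455). NPC2, a lysosomal carrier of cholesterol, went from 109, 144 and 146 CPM to 60.2, 46.1 and 59.6 CPM (-1.27, SE 0.23, adjusted p 0.0232). All 3 genes showed 2 groups with no overlap. NPC2 stood at 58.4, 72.5 and 74.8 CPM in miR-21OE-NCD and at 115, 93.8 and 71.7 CPM in WT-HCD, while ldlra stood at 839, 1235 and 728 CPM in miR-21OE-NCD and 338, 436 and 415 CPM in WT-HCD. Each of these 3 calls was lost without miR-21OE-HCD or WT-NCD of batch 8 or 9. That of srebf2 was also lost without miR-21OE-HCD of batch 7 or WT-HCD of batch 8, and that of ldlra without either of these, WT-HCD of batch 9 or miR-21OE-NCD of batch 7.

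Of 19 genes of LXR and sterol export tested, 4 rose and none fell, or 21.1% called beside 1.25% over all genes. The list median was 1.14, with a positive log2 fold change in 16. ABCG5, which pairs with ABCG8 in the transporter that moves cholesterol into bile, had 9.68, 11.6 and 19.3 CPM in WT-NCD and 30.2, 39.4 and 45.1 CPM in miR-21OE-HCD (log2 fold change 1.53, SE 0.25, adjusted p 0.0138). ABCG1, which hands cholesterol to HDL, had 1.23, 0.198 and 0.187 CPM and 10.4, 5.46 and 10.6 CPM (4.23, SE 0.71, adjusted p 0.0143). Both pairs of groups were apart. MYLIP (mylipb), a ubiquitin ligase that marks the LDL receptor for degradation, rose from 8.30, 2.32 and 1.65 CPM to 70.8, 9.63 and 15.1 CPM (2.77, SE 0.44, adjusted p 0.0107), with the highest value in batch 7 in both groups. LPCAT3, an LXR target in mammals that remodels phospholipids, rose by 1.01 on the log2 scale (SE 0.21, adjusted p 0.0394). LPCAT3 had 841, 347 and 523 counts in WT-NCD, 711, 576 and 862 in WT-HCD and 1211, 1048 and 997 in miR-21OE-NCD. Counts of MYLIP were 276, 88 and 105 in WT-HCD and 814, 53 and 155 in miR-21OE-NCD. For ABCG5 they were 722, 1458 and 1784 in WT-HCD and 263, 526 and 303 in miR-21OE-NCD. For ABCG1 they were 186, 241 and 282 in WT-HCD and 55, 4 and 23 in miR-21OE-NCD. ABCG8 itself had 11.8, 22.4 and 25.8 CPM in WT-NCD and 32.7, 29.9 and 37.6 CPM in miR-21OE-HCD and did not pass (0.87, SE 0.33, adjusted p 0.28). The calls of ABCG5 and ABCG1 were lost without WT-NCD of batch 8, miR-21OE-HCD of batch 8 or miR-21OE-HCD of batch 9, that of ABCG5 and that of MYLIP also without WT-NCD of batch 7, and that of LPCAT3 held only without WT-NCD of batch 7, WT-HCD of batch 7 or WT-HCD of batch 9. In all, 7 of the list were called without miR-21OE-HCD of batch 7.

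Of 19 genes of bile acid synthesis and transport tested, 1 rose and 2 fell, or 15.8% called beside 1.25% over all genes. The list median was -0.06. CYP7A1, the rate-limiting enzyme that turns cholesterol into bile acids, had 102, 9.29 and 16.5 CPM in WT-NCD of batches 7, 8 and 9 and 532, 268 and 314 CPM in miR-21OE-HCD (log2 fold change 4.01, SE 0.73, adjusted p 0.0216). The lowest miR-21OE-HCD library was above the highest WT-NCD library. In the groups with 1 factor, CYP7A1 had 199, 61.8 and 50.9 CPM in WT-HCD and 294, 4.38 and 35.7 CPM in miR-21OE-NCD, so that in each batch the library with both factors was the highest of the 4. The departure of the joint change from the sum of the single changes was 1.17 on the log2 scale and did not pass (unadjusted edgeR p 0.228, adjusted p 1). HSD3B7, the next step of the pathway, fell from 35.9, 54.1 and 49.4 CPM to 10.4, 6.89 and 11.0 CPM (-2.29, SE 0.28, adjusted p 0.00229), and cyp27a1.1 (cyp27a7), a sterol hydroxylase gene, fell by 1.48 on the log2 scale (SE 0.30, adjusted p 0.0394). HSD3B7 kept its call without each library in turn. The call of CYP7A1 was lost without WT-NCD of batch 7, 8 or 9 and without miR-21OE-HCD of batch 8 or 9, and that of cyp27a1.1 held only without WT-NCD of batch 9, WT-HCD of batch 7 or 8 or miR-21OE-NCD of batch 8.

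**Figure D2:**
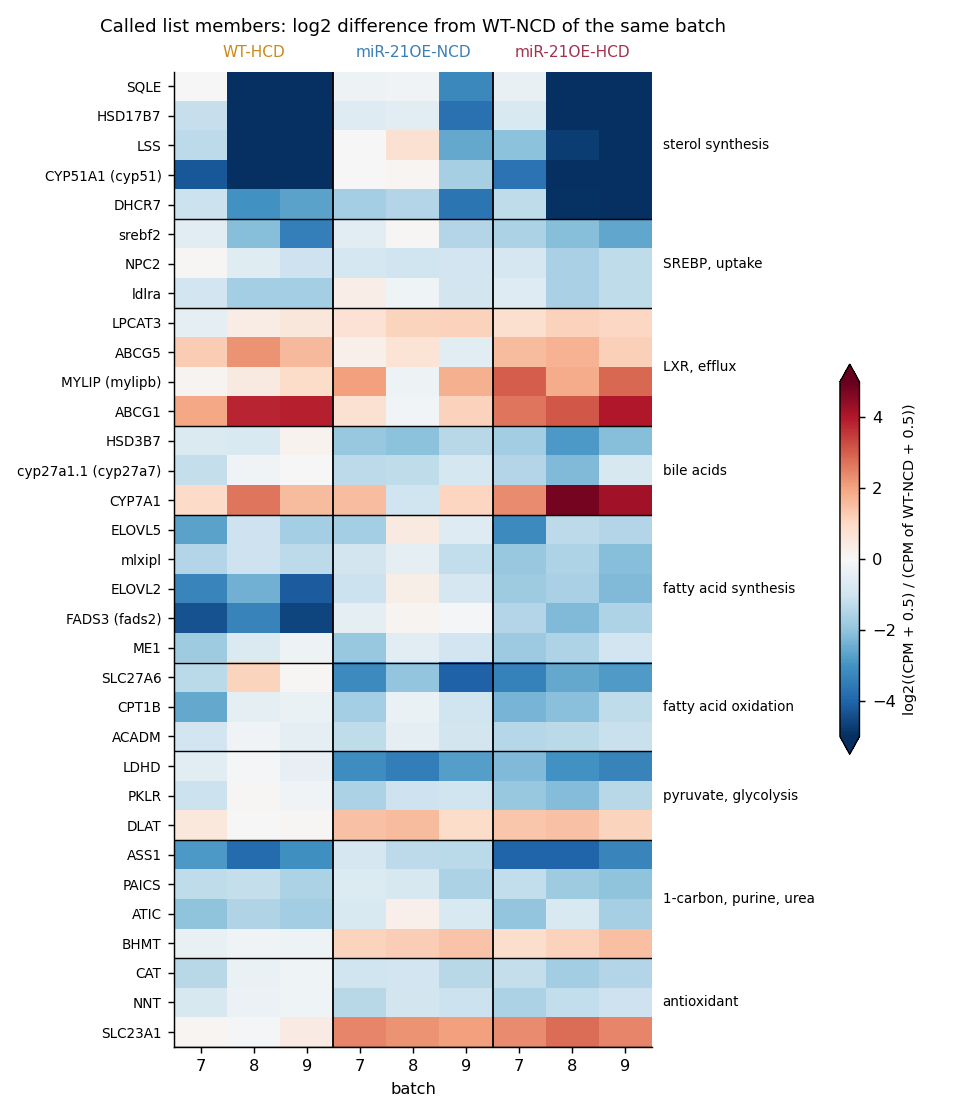
Rows are called members of 9 gene lists, grouped by list. Columns are the 9 libraries of batches 7 to 9 other than WT-NCD, and the colour is the log2 ratio of CPM (0.5 added) to WT-NCD of the same batch, red for higher and blue for lower, with the scale capped at 5 in both directions. The sterol rows shown are blue in batches 8 and 9 of both cholesterol-fed groups and paler in batch 7. BHMT, DLAT and SLC23A1 are red, and LDHD is blue, in both transgenic groups.

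Among the genes that make and remodel fatty acids, those for long polyunsaturated chains fell. Of 23 tested, 5 fell and none rose, or 21.7% called beside 1.25% over all genes, although the list median was -0.04. FADS3 (fads2 in the study), which introduces double bonds into polyunsaturated fatty acids, went from 1223, 2783 and 2576 CPM in WT-NCD to 442, 605 and 876 CPM in miR-21OE-HCD (log2 fold change -1.68, SE 0.32, adjusted p 0.0250). ELOVL2, which lengthens such chains, went from 250, 1574 and 1951 CPM to 72.3, 505 and 426 CPM (-1.91, SE 0.32, adjusted p 0.0143). The groups were apart for FADS3 and overlapped for ELOVL2, where WT-NCD of batch 7 was low. In WT-HCD both were lower than in miR-21OE-HCD in each batch, with 60.0, 272 and 107 CPM of FADS3 and 24.9, 298 and 109 CPM of ELOVL2. ELOVL5 fell by 2.08 (SE 0.38, adjusted p 0.0208), the malic enzyme gene ME1 by 1.49 (SE 0.30, adjusted p 0.0339) and mlxipl, which encodes the sugar-responsive factor ChREBP, by 2.01 on the log2 scale (SE 0.22, adjusted p 0.00187). mlxipl had 11.0, 15.8 and 24.6 CPM in WT-NCD and 2.56, 5.03 and 5.19 CPM in miR-21OE-HCD, and its call held without each library in turn. FASN, the fatty acid synthase, had 424, 180 and 194 CPM against 420, 256 and 205 CPM (0.18, SE 0.25, adjusted p 0.85). The calls of FADS3 and ELOVL2 were lost without WT-NCD of batch 7 or 9 and without miR-21OE-HCD of batch 8 or 9, that of FADS3 also without WT-NCD of batch 8, that of ELOVL5 without miR-21OE-HCD of batch 7 or 8, and that of ME1 without WT-NCD of batch 7 or 8, WT-HCD of batch 8 or any 1 miR-21OE-HCD library.

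Genes that burn fatty acids were mostly lower. Of 37 tested, 4 fell and none rose, or 10.8% called beside 1.25% over all genes. A negative log2 fold change was seen in 33, with a median of -0.63. SLC27A6, a fatty acid transport protein, had 18.2, 13.8 and 39.3 CPM in WT-NCD and 1.28, 1.92 and 5.15 CPM in miR-21OE-HCD (log2 fold change -3.24, SE 0.47, adjusted p 0.00737). CPT1B, the gate for entry of fatty acids into mitochondria, had 29.8, 323 and 241 CPM and 5.49, 76.0 and 100 CPM (-1.97, SE 0.40, adjusted p 0.0378), with overlap because WT-NCD of batch 7 was low. ACADM, a mitochondrial dehydrogenase, fell by 1.31 on the log2 scale (SE 0.22, adjusted p 0.0143). pparaa, which encodes a receptor that switches on these genes in mammals, had 27.2, 109 and 93.6 CPM against 26.5, 41.1 and 37.3 CPM and did not pass (-0.94, SE 0.28, adjusted p 0.15). Without miR-21OE-HCD of batch 8 none of the 4 was called, without WT-NCD of batch 7 or without miR-21OE-HCD of batch 9 only 1 was, and without WT-NCD of batch 8, 2 were. SLC27A6 lost its call without miR-21OE-HCD of batch 8 alone.

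Outside lipid metabolism, calls fell on single enzymes of pyruvate, nitrogen and redox metabolism. Of 42 genes of pyruvate, glycolysis and gluconeogenesis, 1 rose and 2 fell, or 7.14% called beside 1.25% over all genes. LDHD, the mitochondrial D-lactate dehydrogenase, went from 11.7, 16.1 and 18.4 CPM to 2.16, 1.55 and 1.36 CPM (log2 fold change -3.12, SE 0.36, adjusted p 0.00199). PKLR, the liver pyruvate kinase, went from 20540, 15800 and 13414 CPM to 5539, 3533 and 5164 CPM (-1.79, SE 0.28, adjusted p 0.00941). DLAT, a subunit of the pyruvate dehydrogenase complex, rose from 31.1, 30.7 and 37.4 CPM to 81.8, 85.7 and 80.9 CPM (1.32, SE 0.20, adjusted p 0.00906). In each of these genes the 2 groups were well apart. LDHD kept its call without each library in turn, PKLR lost it without WT-NCD of batch 7 or miR-21OE-HCD of batch 8, and DLAT without either of these or WT-NCD of batch 8.

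Of 26 one-carbon, purine and urea enzymes, 1 rose and 3 fell, or 15.4% called beside 1.25% over all genes. ASS1, which joins citrulline and aspartate in the urea and arginine pathway, had 9.91, 13.3 and 6.78 CPM in WT-NCD and 0.146, 0.366 and 0.232 CPM in miR-21OE-HCD, that is 258, 270 and 181 counts against 4, 12 and 6. The log2 fold change was -5.28 (SE 0.42, adjusted p 0.000329), and ASS1 was the only 1 of 60 genes followed through the alternative fits whose call held in all 24 of them. ASS1 stood between these levels in both single-factor groups, at 0.930, 0.461 and 0.376 CPM in WT-HCD and 5.33, 5.09 and 2.39 CPM in miR-21OE-NCD. BHMT, which makes methionine from betaine, was among the most abundant called transcripts and rose from 11266, 7792 and 6592 CPM to 20905, 17510 and 18500 CPM (1.19, SE 0.20, adjusted p 0.0149). The purine synthesis genes PAICS and ATIC fell by 1.69 (SE 0.22, adjusted p 0.00326) and 1.49 on the log2 scale (SE 0.25, adjusted p 0.0138). PAICS was called without each library in turn, ATIC not without WT-NCD of batch 7 or miR-21OE-HCD of batch 9, and BHMT not without WT-NCD or miR-21OE-HCD of batch 8, WT-NCD of batch 7 or miR-21OE-HCD of batch 9.

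Of 31 antioxidant genes, 1 rose and 2 fell, or 9.68% called beside 1.25% over all genes. SLC23A1, a vitamin C transporter, had 2.07, 2.77 and 2.96 CPM in WT-NCD and 12.9, 22.1 and 18.1 CPM in miR-21OE-HCD (log2 fold change 2.75, SE 0.25, adjusted p 0.000555). NNT, which regenerates mitochondrial NADPH, went from 197, 303 and 274 CPM to 65.2, 128 and 134 CPM (-1.29, SE 0.19, adjusted p 0.00783), and CAT, the catalase gene, fell by 1.44 (SE 0.30, adjusted p 0.0389). The insulin-like growth factor axis had 1 call among 16 genes, and at 1.25% over all genes a single call says nothing about the list. IGFBP2 (igfbp2a), a binding protein that holds these growth factors in the circulation, had 158, 221 and 250 CPM in WT-NCD and 40.1, 47.8 and 55.1 CPM in miR-21OE-HCD (-2.11, SE 0.25, adjusted p 0.00214). SLC23A1 and IGFBP2 were separated between the groups and kept their calls without each library in turn, and NNT lost its call without miR-21OE-HCD of batch 8. The call of CAT held only without miR-21OE-HCD, or WT-HCD, of batch 7, WT-HCD of batch 9 or miR-21OE-NCD of batch 8 or 9. ITIH2, a plasma protein of the hyaluronan matrix, and gabarapb, an autophagy adaptor, fell by 1.90 (SE 0.27, adjusted p 0.00606) and 1.27 (SE 0.21, adjusted p 0.0134). These 2 genes, with LDHD, IGFBP2 and NNT, are among those the study named from these samples. FADS3 (fads2), ELOVL2, srebf2, ldlra and pparaa, given above, are others. The changes of all these genes here are not independent evidence. For ITIH2, gabarapb, LDHD, IGFBP2 and NNT, the study also reported qRT-PCR from separate experiments, in miR-21OE and WT larvae on NCD. The call of gabarapb was lost without WT-NCD of batch 7 or 8 and without miR-21OE-HCD of batch 8 or 9.

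**Figure D3:**
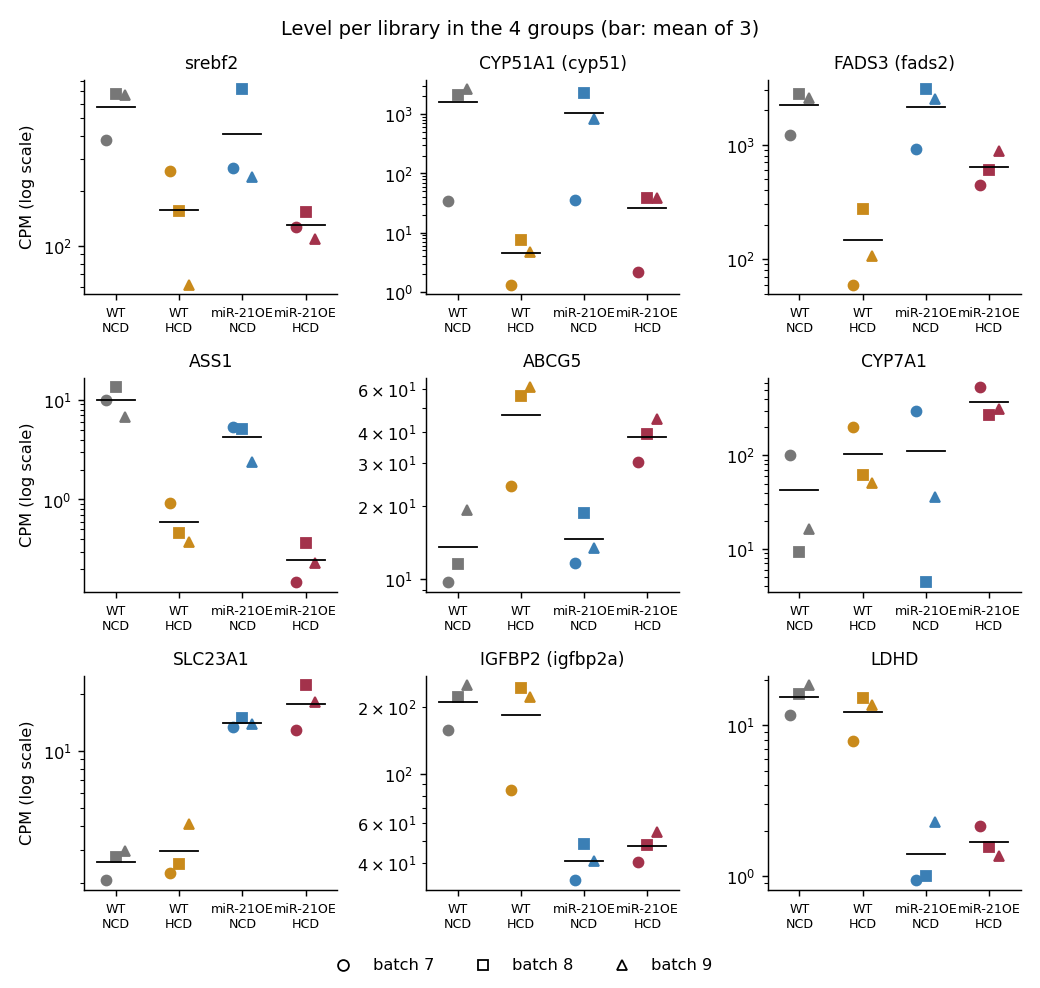
Each panel is 1 gene, with its CPM in the 12 libraries of batches 7 to 9 on a logarithmic axis. Circles, squares and triangles are batches 7, 8 and 9, and the bar is the mean of 3 libraries. Within each batch, srebf2, CYP51A1, FADS3 and ASS1 lie lower and ABCG5 lies higher in both cholesterol-fed groups than in both groups on the control diet, SLC23A1 lies high and IGFBP2 and LDHD lie low in both transgenic groups, and CYP7A1 is highest in miR-21OE-HCD, from 268 to 532 CPM.

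The genes that rose most were a mixed set. MIR30E (dre-mir-30e-2 in the study) is a microRNA gene other than dre-mir-21-1. It had 947, 672 and 830 counts in miR-21OE-HCD and 2, 3 and 0 in WT-NCD. The ratio of the pooled MIR30E levels was 416, with an exact 95% interval of 178 to 1282 for counting error only (log2 fold change 8.61, SE 1.04, adjusted p 0.00229). MAPK8IP3, a scaffold for motor proteins and JNK signalling, had 1.57, 3.71 and 2.66 CPM in WT-NCD and 67.2, 73.8 and 27.4 CPM in miR-21OE-HCD (4.31, SE 0.51, adjusted p 0.00207). NME3, a nucleoside diphosphate kinase, had 1.42, 4.05 and 1.95 CPM and 22.4, 41.3 and 27 CPM (3.66, SE 0.53, adjusted p 0.00737). In miR-21OE-NCD, MIR30E had 13.4 to 63.6 CPM, MAPK8IP3 41.3 to 57.3 CPM and NME3 9.96 to 36.4 CPM, all above each WT-NCD library. All 3 genes kept their calls without each library in turn. In WT-HCD of batches 7, 8 and 9, MIR30E had 40, 3 and 4 counts. The source of the MIR30E reads was not tested.

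A pair of channel and membrane genes had their highest level where both factors met. tmem59l, a transmembrane protein gene, had 3.03, 2.67 and 1.87 CPM in WT-NCD, 38.0, 4.57 and 6.22 CPM in WT-HCD, 26.4, 2.7 and 4.64 CPM in miR-21OE-NCD and 149, 43.7 and 34.8 CPM in miR-21OE-HCD. Its log2 fold change was 4.51 (SE 0.49, adjusted p 0.00187), and the departure from the sum of the single changes was 1.08 (unadjusted p 0.113, adjusted p 1). kcnh6b, a potassium channel gene, had at most 0.643 CPM in WT-NCD, 2.42 to 4.61 CPM in WT-HCD, 0.178 to 2.80 CPM in miR-21OE-NCD and 9.85 to 19.0 CPM in miR-21OE-HCD (5.39, SE 0.81, adjusted p 0.00849). For kcnh6b the departure from the sum of the single changes was -0.07 (SE 0.85, unadjusted edgeR p 0.937). In both genes each miR-21OE-HCD library was above the 3 other libraries of its batch. Both calls held without each library in turn. SLC16A9 (slc16a9a), a carrier of monocarboxylates, rose from 90.2, 22.9 and 11.3 CPM to 316, 507 and 164 CPM (3.71, SE 0.62, adjusted p 0.0143), with 625 CPM in miR-21OE-NCD of batch 7 as its highest value. mansc1 rose by 4.05 (SE 0.46, adjusted p 0.00187), DPP6 (dpp6b) by 4.60 (SE 0.93, adjusted p 0.0365) and LRIT3 (lrit3a) by 3.79 (SE 0.73, adjusted p 0.0267). apoa4a, an apolipoprotein of fat absorption, had 0, 0.0989 and 0.337 CPM in WT-NCD and 0.330, 62.9 and 2.29 CPM in miR-21OE-HCD, so that the groups overlapped and most of the rise (6.00, SE 1.27, adjusted p 0.0454) came from batch 8. actb1, a cytoskeletal actin gene, rose from 362, 510 and 714 CPM to 2769, 4099 and 4581 CPM (2.86, SE 0.32, adjusted p 0.00187). Counts of actin genes are uncertain between near-identical copies. mansc1 and actb1 kept their calls without each library in turn. The call of SLC16A9 was lost without WT-NCD of batch 7 or 8 or miR-21OE-HCD of batch 8 or 9, that of LRIT3 without WT-NCD of batch 7 or 8 or miR-21OE-HCD of batch 8, that of DPP6 without any 1 of the 6 libraries compared, and that of apoa4a held only without miR-21OE-HCD of batch 7 or 9, WT-HCD of batch 7 or miR-21OE-NCD of batch 8 or 9.

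Other large falls outside the lists were in cyp2x9, a cytochrome P450 gene, with 18.1, 42.7 and 67.4 CPM in WT-NCD and 0.146, 9.94 and 3.68 CPM in miR-21OE-HCD (log2 fold change -4.41, SE 0.75, adjusted p 0.0156), acss2l, an acetyl-CoA synthetase gene (-4.07, SE 0.79, adjusted p 0.0278), and ppm1nb, a protein phosphatase gene (-4.11, SE 0.83, adjusted p 0.0352). acss2l had 150, 634 and 657 CPM in WT-NCD and 46.2, 25.0 and 14.7 CPM in miR-21OE-HCD. In these 3 genes the groups did not overlap. The call of cyp2x9 was lost without miR-21OE-HCD of batch 9, that of acss2l without WT-NCD or miR-21OE-HCD of batch 8 or 9, and that of ppm1nb without WT-NCD of batch 7 or 9, miR-21OE-HCD of batch 8 or 9 or WT-HCD of batch 8.

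Which factor the joint change resembled was read from the 2 groups with 1 factor each. The contrast of miR-21OE-NCD with WT-HCD compares other libraries than the joint contrast. Both contrasts came from 1 fit of the 12 libraries, with shared batch terms and spread, so they are not independent fits. Between miR-21OE-NCD and WT-HCD 102 genes were called, 0.471% of those tested. Of them, 47 were also among the 270, which is 17.4% of the joint calls and 46.1% of the calls between the single-factor groups. In 38 of the 47 the side of the joint change was that of miR-21OE-NCD, and in 9 that of WT-HCD. The 9 included CYP51A1, FADS3, ELOVL2, ASS1, ATIC and ABCG5. CYP51A1 was 6.77 higher on the log2 scale in miR-21OE-NCD than in WT-HCD (SE 0.82, adjusted p 0.00438) and ABCG5 lower (log2 fold change -1.6, SE 0.25, adjusted p 0.0192). The 38 held BHMT, DLAT, SLC23A1, actb1, MIR30E, MAPK8IP3, NME3 and mansc1 among the 17 that rose, and LDHD, IGFBP2, SLC27A6, HSD3B7, ITIH2 and gabarapb among the 21 that fell. LDHD was -3.14 (SE 0.37, adjusted p 0.00392), IGFBP2 -2.07 (SE 0.25, adjusted p 0.00442) and SLC23A1 2.27 (SE 0.24, adjusted p 0.00244) between miR-21OE-NCD and WT-HCD. For the other 223 joint calls this contrast did not pass, which does not show that both single factors changed them alike. On the side of WT-HCD, SQLE (10.0, adjusted p 0.0529), ABCG1 (-3.29, 0.0600), HSD17B7 (4.78, 0.0635) and LSS (5.21, 0.0934) missed the threshold. On the side of miR-21OE-NCD, PKLR (-0.85, 0.249) and cyp2x9 (-1.84, 0.313) missed it. The 38 and the 9 count calls only and do not weigh the size of the changes. The 102 calls became 24, 37 and 36 without miR-21OE-NCD of batches 7, 8 and 9, 27 and 54 without WT-HCD of batches 8 and 9, 67 without WT-NCD of batch 8 and 173 without miR-21OE-HCD of batch 7, and none was left without the replicate block, where 1522 genes had an unadjusted p under 0.05 and DESeq2 called 195.

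**Figure D4:**
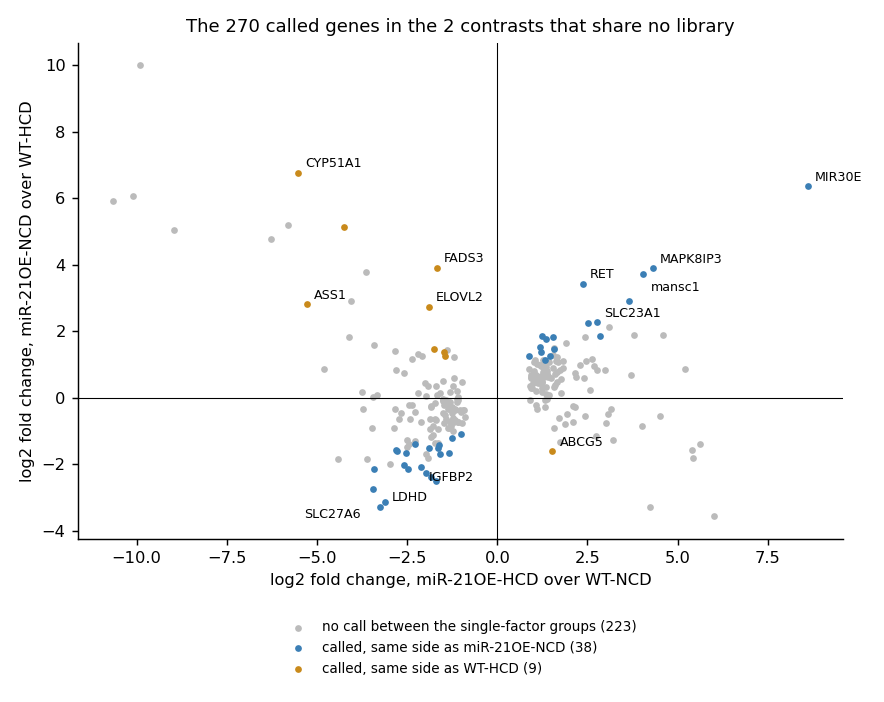
Each point is 1 of the 270 genes called between miR-21OE-HCD and WT-NCD. The horizontal axis is that log2 fold change and the vertical axis the log2 fold change of miR-21OE-NCD over WT-HCD, from libraries that the horizontal axis does not use. The 38 blue genes passed on the vertical axis on the side of miR-21OE-NCD, the 9 orange genes on the side of WT-HCD, and the 223 grey genes did not pass.

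The diet effect in the 12 WT libraries of batches 1 to 6 gave a reading from other livers. There, 457 genes rose (1.95% of 23420 tested) and 336 fell (1.43%). Of the 132 genes that rose with both factors, 20 rose with the diet alone in those batches, 15.2% of the joint list and 4.38% of the diet list, and 1 fell. Of the 137 joint falls that were tested there, 45 fell with the diet alone, 32.8% of the joint list and 13.4% of the diet list, and none rose. The sterol list had 16 of 23 genes called down in batches 1 to 6, and CYP51A1 changed by -9.07 (SE 0.47, adjusted p 9.82e-05) and FADS3 by -5.17 on the log2 scale (SE 0.36, adjusted p 0.000646). ABCG1 rose by 3.89 (SE 0.40, adjusted p 0.00684), ABCG5 by 2.78 (SE 0.27, adjusted p 0.00570), kcnh6b by 3.41 (SE 0.71, adjusted p 0.0387) and tmem59l by 1.2 (SE 0.25, adjusted p 0.0392). The genes that rose in WT livers of batches 1 to 6 also included SLC23A1, by 1.18 on the log2 scale (SE 0.25, adjusted p 0.0410), although it had 2.26, 2.54 and 4.10 CPM in WT-HCD of batches 7 to 9 beside 2.07, 2.77 and 2.96 CPM in WT-NCD. ASS1 did not pass in batches 1 to 6 (-1.99, SE 0.68, adjusted p 0.143), nor did CYP7A1 (1.55, SE 0.40, adjusted p 0.0690), LDHD (-0.77, SE 0.20, adjusted p 0.0671) or IGFBP2 (-0.82, SE 0.25, adjusted p 0.113). Without the replicate block 34 genes were called in batches 1 to 6.

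No gene departed from the sum of the 2 single changes at an adjusted p under 0.05 in edgeR, and 454 genes had an unadjusted p under 0.05. DESeq2 with the replicate block called 8 genes, and none without it, and edgeR called 1 gene when WT-HCD of batch 9 was left out. This interaction uses the libraries of the joint contrast, so its values stand beside the joint changes as a description. Of the 270 joint calls, 16 had an unadjusted interaction p under 0.05. FADS3 had the smallest p of the list members named here, with 2.47 on the log2 scale (unadjusted p 0.000137, adjusted p 1), and ELOVL2 followed with 1.95 (unadjusted p 0.000919, adjusted p 1). For both genes the positive sign means that the level with both factors was above the one that adding the 2 single changes would give. The study had already singled out both from these samples. It described them as higher in miR-21OE than in WT larvae on HCD, and as lowered by HCD in either genotype.

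In the lists of this paragraph, of 14 to 29 genes each, the share called over all genes (1.25%) corresponds to less than 1 call, so a count of 0 or 1 says nothing about a list. None of 14 mRNAs known as miR-21 targets in mammals passed, and their median log2 fold change was -0.32. None of 29 cell cycle and DNA replication genes passed either, with a median of -0.36 and 23 below 0. Their direction differed between batches. Against WT-NCD of the same batch, the median in miR-21OE-HCD was -0.11, 0.32 and -0.67 in batches 7, 8 and 9. The genes that were lower numbered 19, 7 and 23. HERPUD1 was the 1 call among 21 genes of endoplasmic reticulum stress, and rose by 1.23 (SE 0.25, adjusted p 0.0394). That call held only without miR-21OE-HCD of batch 9, WT-HCD of batch 7 or miR-21OE-NCD of batch 7 or 9. Of 20 lipoprotein genes, apoa4a was the 1 called. Of 22 autophagy genes, gabarapb was. Among 16 immediate early genes, whose RNA rises within minutes of handling or stress, JUNB (junbb) rose by 1.57 (SE 0.31, adjusted p 0.0304) and ier2b by 1.94 (SE 0.38, adjusted p 0.0278), and the list median was 1.02. The summed level of that list was 541, 404 and 261 CPM in WT-NCD and 784, 991 and 547 CPM in miR-21OE-HCD, and the part of this difference in the other results was not tested. Both calls were lost without WT-NCD of batch 7, 8 or 9 or without miR-21OE-HCD of batch 8 or 9.

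Markers of the neighbouring pancreas varied widely between libraries, also within groups. All 17 exocrine pancreas markers tested and all 10 endocrine ones had a negative log2 fold change, with medians of -2.45 and -4.00. The exocrine markers summed to 1357, 18739 and 8945 CPM in WT-NCD of batches 7, 8 and 9 and to 2648, 575 and 787 CPM in miR-21OE-HCD, so the difference lay in batches 8 and 9 and had the opposite direction in batch 7. They summed to 1496, 3700 and 1375 CPM in WT-HCD and to 4276, 832 and 50246 CPM in miR-21OE-NCD. ins, the insulin gene, had 39, 615 and 771 counts in WT-NCD and 0, 0 and 3 in miR-21OE-HCD (log2 fold change -10.65, SE 1.70, adjusted p 0.0116), SST (sst1.1), the somatostatin gene, had 0, 266 and 374 counts against 1, 0 and 1 (-8.95, SE 1.93, adjusted p 0.0471), and the amylase gene amy2al1 (zgc:66313) fell by 4.82 (SE 0.63, adjusted p 0.00398). The ratio of the pooled ins levels was 560 (exact 95% interval 191 to 2716, counting error only). In the single-factor groups, ins had 1, 0 and 11 counts in WT-HCD and 2, 6 and 1040 in miR-21OE-NCD. SST had 0, 0 and 10 counts in WT-HCD and 2, 1 and 370 in miR-21OE-NCD. These 3 genes are the called members of both lists. That is 1 of 17 exocrine markers (5.88%) and 2 of 10 endocrine markers (20%), beside 1.25% over all genes. Counts of amy2al1 were 17, 326 and 480 in WT-NCD, 3, 290 and 28 in miR-21OE-NCD and 0, 50 and 7 in miR-21OE-HCD. It fell with the exocrine sum in miR-21OE-HCD of batches 8 and 9. In miR-21OE-HCD of batch 7 and miR-21OE-NCD of batch 9, amy2al1 was lower than in WT-NCD, while 16 of the 17 exocrine markers were higher. Its call thus does not stand for the exocrine list. The part of pancreas RNA in the other falls was not tested. The call of ins was lost without miR-21OE-HCD of batch 8 or 9 and that of SST without either of these, WT-NCD of batch 7, miR-21OE-NCD of batch 7 or any 1 WT-HCD library, while amy2al1 was called without each library in turn.

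Neutrophil markers summed to 137, 82.0 and 79.3 CPM in WT-NCD and 160, 237 and 195 CPM in miR-21OE-HCD, and LECT2 (lect2l), the 1 of 13 called, rose from 76.5, 30.5 and 30.2 CPM to 101, 170 and 141 CPM (log2 fold change 1.73, SE 0.36, adjusted p 0.0409). Without LECT2, the other 12 neutrophil markers summed to 60.4, 51.5 and 49.1 CPM in WT-NCD and 59.5, 67.4 and 54.5 CPM in miR-21OE-HCD. The difference in the sum thus lay mostly in LECT2. Over the 13 genes, however, the median log2 fold change was 1.18, and 11 were positive. Within batches 7, 8 and 9 the median was 0.14, 1.32 and 0.06, with 7, 11 and 8 genes higher. The call of LECT2 held only without WT-NCD, WT-HCD or miR-21OE-HCD of batch 7, WT-HCD of batch 9 or miR-21OE-NCD of batch 8. The biliary list held 2 gene IDs under the symbol SOX9, because its marker sox9b was matched by the human symbol. The ID called was the paralog sox9a, not the listed marker, and SOX9 (sox9a) fell from 9.30, 10.3 and 7.01 CPM to 1.83, 1.65 and 1.90 CPM (-2.29, SE 0.42, adjusted p 0.0216). The other SOX9 ID had a log2 fold change of 0.72 (adjusted p 0.337), no other biliary marker passed, and 8 of the 10 IDs had a positive log2 fold change. The call of SOX9 (sox9a) was lost without WT-NCD of batch 8 or 9 or miR-21OE-HCD of batch 7 or 8. Muscle markers summed to 1418, 203 and 624 CPM in WT-NCD and 291, 195 and 191 CPM in miR-21OE-HCD, and none of 15 passed. None of the stellate, endothelial, macrophage, lymphocyte, erythrocyte, intestinal, skin or lens markers passed. With 1.25% called over all genes, a count of 0 says nothing about any 1 of these lists or the muscle list. The single call in the neutrophil list (7.69%) and in the biliary list (10%) says nothing about those lists either.

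**Figure D5:**
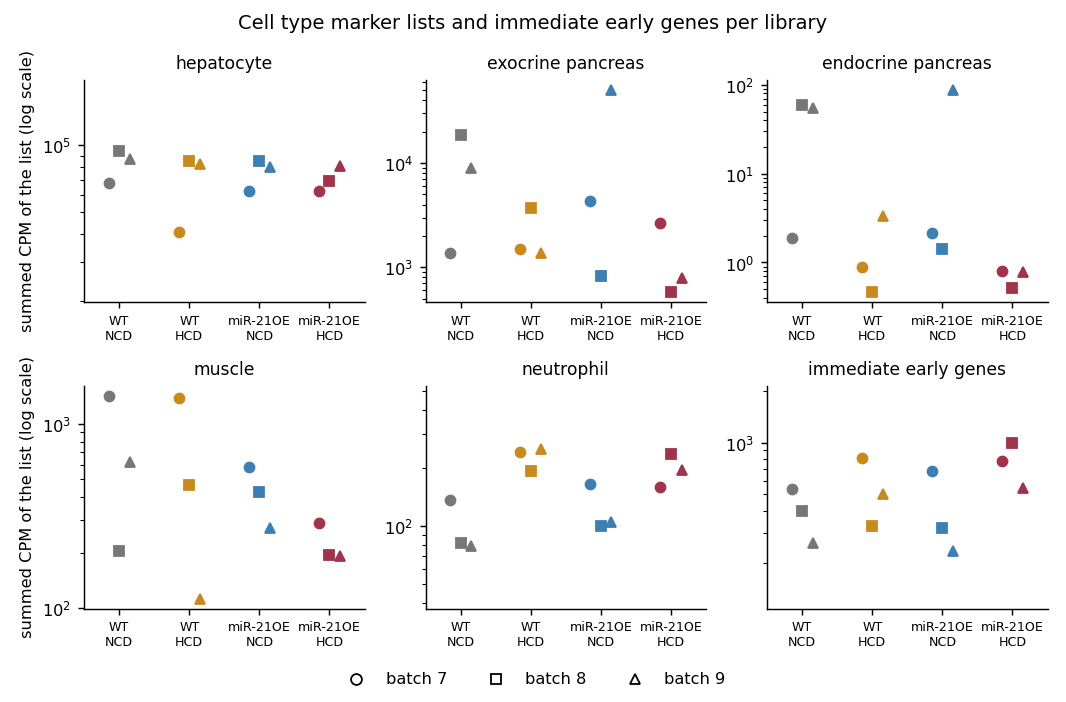
Each panel gives the summed CPM of 1 marker list, or of the immediate early genes, in the 12 libraries of batches 7 to 9 on a logarithmic axis. Circles, squares and triangles are batches 7, 8 and 9. Pancreas markers are high in WT-NCD of batches 8 and 9 and in miR-21OE-NCD of batch 9 and low in miR-21OE-HCD of batches 8 and 9, and hepatocyte markers stay within 40915 to 94773 CPM.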

How the data were processed

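RNA-seq of pooled larval zebrafish livers was analysed. The authors depleted ribosomal RNA, made directional NEBNext Ultra II libraries, read both ends over 150 bp (NovaSeq X) and used the GRCz11 build. The submitters' processing notes list STAR 2.7.9a, cutadapt 1.16 and featureCounts 1.6.3, and the strand setting is not given in the sources used here, so values of overlapping, antisense and near-identical genes are uncertain. What the authors deposited is a single table of unnormalized counts (32520 genes, of which 29201 were paired with a symbol).

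The 12 libraries of batches 7 to 9 were fitted in edgeR 4.0.16 (R 4.3.3, quasi-likelihood F-test, two-sided, TMM), with a mean per group and batch as a replicate block, on genes with at least 10 counts in total. The fit had 6 residual degrees of freedom, and the SE is the log2 fold change divided by the square root of F. Adjustment was by Benjamini and Hochberg over all genes tested (threshold 0.05). The block was used because each batch, as labelled, gave 1 library to each group. The numbers 7 to 9 stand for these labels, of which those of batches 8 and 9 begin alike and that of batch 7 differs. After group means were removed, libraries sharing a batch correlated in log2 CPM with a mean r of 0.46 (minimum 0.18 over 18 pairs, across 11030 genes). The mean between batches was -0.21, but removing means of 3 libraries itself pushes that value below 0. Libraries of batches 8 and 9 mostly correlated positively with each other. miR-21OE-HCD of batch 8 correlated at 0.30 with WT-NCD of batch 9 and at 0.26 with WT-NCD of batch 8. For miR-21OE-HCD of batch 9 these values were 0.28 and 0.17. The interaction and the contrast of the single-factor groups came from the same fit, and the diet in batches 1 to 6 from a fit of its own. Replicates are separate pools, and none looked like 1 library deposited more than once (chi-square per degree of freedom at least 48.2 within groups). Genes named are the top 12 in each direction among calls with a mean of at least 50 counts and 1 direction in all batches, the 5 calls of highest level, and members of gene lists. The comparison, members and lists were chosen with earlier results of these data known. The script was tested on simulated data. Alternatives were no block, the 6 libraries alone, DESeq2 1.42.0, RLE size factors, library totals, no filter or a mean of 50 counts, and leaving out each library or batch. Counts of list members under these settings were added after the data were seen. Values of some genes are not reported here.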

Additional observations from a re-analysis of the deposited data

How the results depend on the processing

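The 270 joint calls became 22 with no replicate block, 94 with only the 6 libraries compared and the replicate block, 3 with these 6 and no replicate block, 947 by DESeq2 with the replicate block, 437 on library totals and 440 with no filter. They ranged from 72 to 338 when each of the 12 libraries was left out, and were 221, 13 and 42 without batches 7, 8 and 9. DESeq2 without the block (322), RLE (268) and a mean of at least 50 counts (323) stayed within 1.5 times. DESeq2 with the block shared 269 of the 270 calls, RLE 262 and library totals 224. The 102 calls between the single-factor groups became 0 with no replicate block, 536 by DESeq2 with the replicate block, 195 by DESeq2 without it, 61 on library totals and 191 with no filter, and ranged from 24 to 173 without single libraries. The interaction had 0 calls in edgeR under each setting except that leaving out single libraries gave 0 to 1, and 8 by DESeq2 with the replicate block. The 793 diet calls of batches 1 to 6 became 34 with no replicate block, 2609 by DESeq2 with the replicate block and 1777 on library totals, where 1593 rose. No direction reversed among 60 named genes under any setting. All 60 had been picked as calls of the main fit on these libraries, so the lack of reversals says little about their stability. Of the 60, 18 kept their call without each library in turn, and the others lost it without 1 to 9 of the libraries. The sterol genes called down, 6, ranged from 2 to 13 without single libraries, and were 18 by DESeq2 with the replicate block and 0 by edgeR without it. The cause of these changes was not tested. With 3 libraries per group, and counts below 1 CPM in many genes, no change smaller than 0.87 on the log2 scale was called. What set this limit was not tested.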
